A study of Mus musculus with 14 samples.

Results

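The genes described here are the 10 of the MHC class II antigen presentation pathway, out of 21853 protein-coding genes measured in each library. They were listed by name, with earlier results of these data known, and each symbol matched 1 row of the expression table. RNA-seq libraries had been made from the ovary and the uterus of 7 female C57BL/6J mice, 28 weeks old. The 4 OT (old treatment) mice had received concentrated conditioned medium of human amniotic membrane-derived mesenchymal stem cells (AMSC-CM), mixed from 3 donors, by 6 tail vein injections spaced 4 days apart at 1 µL/g, and the 3 OC (old control) mice had received normal saline by vein. All mice of both groups had first been given pregnant mare serum gonadotropin and, 48 h later, human chorionic gonadotropin, 10 IU each. This was done before the injections, to synchronize the estrous cycle. No cycle stage at tissue collection is given, so the stage behind each value below is not known. Each mouse gave 1 library per organ, which made 14 libraries, and a p-value therefore measures the spread between mice. The conditioned medium was a pool, so the OT mice do not sample different preparations of it.

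MHC class II molecules display peptides from proteins taken up by endocytosis to CD4+ T cells, and are made mainly by dendritic cells, macrophages and B cells. An alpha and a beta chain assemble in the endoplasmic reticulum with the invariant chain, which blocks the peptide groove, and in the endosome H2-DM helps to exchange the remaining fragment for an antigenic peptide while H2-O restrains H2-DM. Transcription of the classical chains depends on CIITA, a coactivator that is recruited by the factors RFX, CREB and NF-Y at the conserved X and Y boxes of the promoters, and that interferon gamma induces in many cell types. Mice of the C57BL/6 strain carry a haplotype that displays the I-A molecule but no I-E molecule on the cell surface, although the beta chain gene of I-E is transcribed.

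By role, the members were the chain genes H2-Aa (I-A alpha), H2-Ab1 (I-A beta) and H2-Eb1 (I-E beta), the invariant chain gene Cd74, the H2-DM chains H2-DMa, H2-DMb1 and H2-DMb2, the H2-O chains H2-Oa and H2-Ob, and the coactivator Ciita. In the GENCODE M21 annotation of GRCm38, 8 of the 10 lie within 224 kb of chromosome 17, from 34092340 to 34316674, in the order H2-Oa, H2-DMa, H2-DMb2, H2-DMb1, H2-Ob, H2-Ab1, H2-Aa and H2-Eb1. H2-Aa is on the minus strand and the other 7 are on the plus strand. H2-DMb1 and H2-DMb2 are near-identical neighbours, so the division of fragments between them is uncertain.

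Promoter windows (250 bases before to 50 after the start, RefSeq on GRCm38.p6) were at hand for 7 members, 8 windows in all, and are shown because class II promoters are known for the boxes that RFX and NF-Y bind. The letters ACNGATG stand for the 3′ part of the X box, GATTGG is the Y box core, and both strands were searched. GATTGG was found in 7 of the 8 member windows against 16.1% of all 32851 windows, and ACNGATG in 5 of 8 against 9.85%. The arrangement of ACNGATG followed by GATTGG 10 to 35 bases on, on the same strand, was found in 3 of the 8 windows, those of H2-Eb1, H2-DMb1 and H2-DMb2, and in 0.0761% of all windows (25). Outside that arrangement, H2-Aa held ACNGATG only on the strand opposite to the gene, and H2-Oa held it on the strand of the gene. Capitals mark GATTGG, and ACNGATG where it stood in that arrangement. All are read 5′ to 3′ on the strand of the gene.
H2-Eb1, chr17:34305737-34305822, plus strand: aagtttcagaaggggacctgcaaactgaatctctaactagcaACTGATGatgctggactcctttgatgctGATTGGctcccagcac
H2-DMb1, chr17:34153059-34153144, plus strand: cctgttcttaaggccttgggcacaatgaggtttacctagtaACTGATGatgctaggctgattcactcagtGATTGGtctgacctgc
H2-DMb2, chr17:34145088-34145173, plus strand: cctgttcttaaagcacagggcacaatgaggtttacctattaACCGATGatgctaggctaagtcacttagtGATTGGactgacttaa
H2-Aa, chr17:34287857-34287942, minus strand: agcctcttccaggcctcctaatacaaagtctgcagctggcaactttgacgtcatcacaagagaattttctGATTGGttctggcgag
H2-Ob, chr17:34238777-34238862, plus strand: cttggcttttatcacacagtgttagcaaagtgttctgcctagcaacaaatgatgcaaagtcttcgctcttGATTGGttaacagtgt
H2-Oa, chr17:34092265-34092350, plus strand: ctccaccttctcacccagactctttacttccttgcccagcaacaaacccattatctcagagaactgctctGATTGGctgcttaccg
The first base of GATTGG lay 60 bases before the start in H2-Eb1, 62 in H2-DMb1, 91 in H2-DMb2, 49 in H2-Aa, 58 in H2-Ob and 44 in H2-Oa. The gap between the boxes was 22 bases in both H2-DMb1 and H2-DMb2 and 21 bases in H2-Eb1. H2-DMa had 2 windows, of which 1 held GATTGG, 199 bases before the start, and the other held neither motif. A match describes the letters in the window and not a bound site. Only exact letters were counted, so an X or Y box spelled otherwise was missed, and a window without a match may still hold a box. The strand given for H2-Aa is that of the letters and not of its X box. No window was used for H2-Ab1, Ciita and Cd74.

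Library facts that touch these genes were as follows. The summed FPKM (fragment counts corrected for transcript length and for library size) of a library was 374816 to 397644 in the ovaries and 425875 to 577494 in the uteruses, and the read depth behind it is unknown. The ovary and uterus marker lists separated the organs, and 9 of 10 ovary markers were called lower in the uterus. However, Hoxa10, a gene of the uterus marker list, ranged from 0.572 to 53.4 FPKM in the ovaries. Adipocyte markers had higher mean log2 values in OT. At the cutoffs given below, 10 of 10 were called in the uterus (2.9% of all genes tested) and 6 of 10 in the ovary (0.451%). Their sum in the OT3 ovary, 330.2 FPKM, lay inside the OC range of 259 to 428. In the uterus 6 of the 7 stratified epithelium markers tested were called higher. The OT2 libraries had the highest sums of B cell, plasma cell, macrophage and pan-leukocyte markers in both organs, as described below. The differences of the members between OT and OC are given with and without OT2.

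FPKM is per transcript length, so the levels of the members can be set side by side. Cd74 was the highest member in all 14 libraries, at 145 ± 40.1 FPKM (SD, n = 7) in the ovary and 255 ± 81.3 in the uterus, which ranked it 334th and 205th among all genes. It is apart from the cluster, on chromosome 18 from 60803848 to 60812652. H2-Aa came next with 117 ± 27.8 and 193 ± 74.8 FPKM, then H2-Ab1 with 69.6 ± 16.8 and 127 ± 40.6, and then H2-Eb1 with 57.6 ± 14.3 and 97.7 ± 30.1. This order of the 4 was the same in every library, although the ranges of neighbours over libraries overlap, and all 4 moved together between libraries.

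The genes of peptide loading and control were lower. H2-DMa, the H2-DM alpha chain, had a mean of 9.47 ± 3.12 FPKM (SD, n = 7) in the ovaries and 16.4 ± 5.61 in the uteruses, and H2-DMb1 had 6.86 ± 1.11 and 11.8 ± 4.37. H2-Eb1 was 4.86 to 7.63 times as high as H2-DMa in the uteruses and 5.38 to 7.41 times in the ovaries. Ciita, on chromosome 16 from 10480059 to 10528418, had 3.41 ± 1.08 and 5.63 ± 1.61 FPKM. The lowest 3 were H2-Ob (2.63 ± 0.769 and 2.22 ± 1.01), H2-DMb2 (1.46 ± 1.14 and 2.44 ± 2.03) and H2-Oa (0.967 ± 0.247 and 2.2 ± 0.567). In the uterus the order of these 3 changed from library to library, and in the ovary Ciita stood above H2-Ob in 6 of 7 libraries and H2-DMb2 above H2-Oa in 5 of 7.

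**Figure D1:**
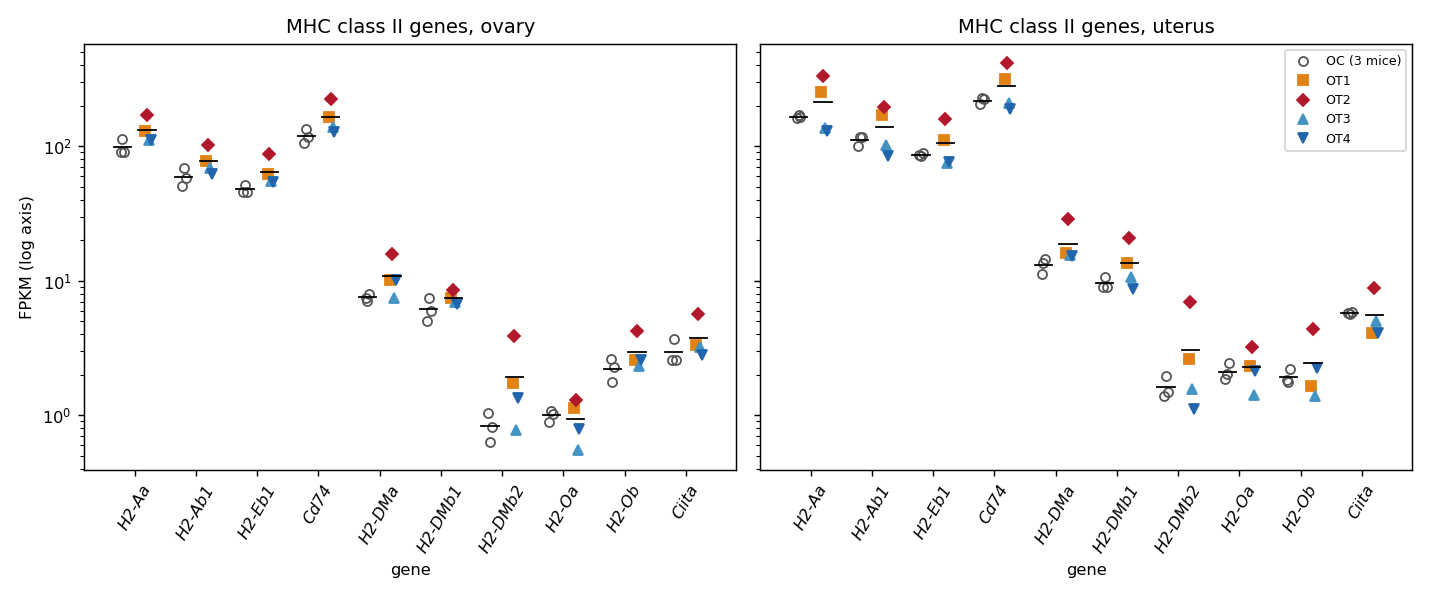
FPKM of the 10 MHC class II genes (log axis) in the ovary and the uterus, with 1 point per library, open circles for the 3 OC mice, filled symbols for the 4 OT mice and short lines for the group means. The chain genes and Cd74 sit at or above 45.9 FPKM and the other 6 genes at or under 28.6, and OT2 (diamond) is the highest of the 7 libraries for all 10 genes in both organs.

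To ask whether AMSC-CM treatment went with altered class II expression, OT was compared with OC in each organ. In the ovary, 9 of the 10 members had a higher mean log2 value in OT, with a median difference of 0.39 on the log2(FPKM + 0.1) scale, against −0.01 for all 14415 genes tested. None of the 10 was called at the cutoffs of the study (a log2 difference of 1 or more in either direction with an unadjusted p up to 0.05), against 0.451% of all genes tested, and none passed an adjusted p of 0.05, which no gene in the table did. At an unadjusted p under 0.05 alone, 3 members and 650 genes in all (4.51%) were found by limma.

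H2-Aa measured 91.2, 114 and 90.2 FPKM in the 3 OC ovaries and 130.2, 172, 112 and 112 in OT1 to OT4. H2-Eb1 measured 45.9, 51.9 and 46.0 FPKM in OC and 62.6, 87.3, 55.0 and 54.5 in OT. H2-Eb1 was the only member whose OT ovaries all lay above the OC ovaries, which held for 2.78% of the genes tested, while OC2 overlapped the lower OT ovaries for H2-Aa. The log2 difference was 0.40 for H2-Aa (SE 0.16) and 0.41 for H2-Eb1 (SE 0.16), each with an adjusted p of 0.997 by limma. H2-Ab1 measured 50.7, 68.5 and 57.8 FPKM in OC and 77.4, 102, 68.8 and 61.7 in OT, a difference of 0.38 (SE 0.17). Without OT2 the differences of the 3 chains were smaller, 0.27 for H2-Aa, 0.24 for H2-Ab1 and 0.26 for H2-Eb1.

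Cd74, the chaperone of the newly made chains, measured 106, 135 and 118 FPKM in the OC ovaries and 166, 226, 138 and 128 in the OT ovaries. Its log2 difference was 0.43 (SE 0.18, 95% interval 0.00 to 0.85, adjusted p = 0.997 by limma), a 1.34-fold ratio. OT4 lay inside the OC range and the other 3 OT ovaries above it, and the difference was 0.26 without OT2. The ratio of Cd74 to the mean of the 3 chain genes was nearly constant, at 0.87 ± 0.05 on the log2 scale (SD, n = 3) in OC and 0.90 ± 0.07 (n = 4) in OT, a difference of 0.03 with a two-sided exact permutation p of 0.514.

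Of the H2-DM genes, H2-DMa measured 7.50, 7.06 and 8.01 FPKM in the OC ovaries and 10.2, 15.9, 7.42 and 10.1 in the OT ovaries, a log2 difference of 0.48 (SE 0.22). OT3 alone was inside the OC range, and without OT2 the difference was 0.28. H2-DMb2 had the largest difference of the 10, 0.94 (SE 0.47, adjusted p = 0.997 by limma), from 1.03, 0.629 and 0.824 FPKM in OC and 1.74, 3.89, 0.782 and 1.35 in OT. The H2-DMb2 difference was 0.54 without OT2, and 1.27 without OT3, where it was called at the cutoffs of the study. H2-DMb1 differed by 0.28 (SE 0.15; 0.21 without OT2), with OC at 5.06 to 7.43 and OT at 6.75 to 8.49 FPKM.

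The 2 inhibitor chains had differences of opposite sign in the ovary. H2-Oa was the only member with a lower mean log2 value in OT, −0.13 (SE 0.33, adjusted p = 0.998 by limma), and measured 0.896, 1.08 and 1.02 FPKM in OC and 1.14, 1.29, 0.547 and 0.792 in OT. The difference was 0.08 without OT3 and −0.29 without OT2. H2-Ob differed by 0.36 (SE 0.24; 0.18 without OT2), with 1.77 to 2.61 FPKM in OC and 2.32 to 4.24 in OT. Ciita, the coactivator, differed by 0.31 (SE 0.25; 0.09 without OT2), with 2.59, 3.66 and 2.59 FPKM in OC and 3.34, 5.68, 3.20 and 2.82 in OT, of which only OT2 lay above the OC range.

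In the uterus the members were higher in OT by a median of 0.24 on the log2 scale, against 0.01 for all 14151 genes tested, and again 9 of 10 had a positive difference. None was called at the cutoffs, against 2.9% of all genes tested, and none had an unadjusted p under 0.05, against 8.2%. The adjusted p-values of the members ran from 0.621 to 0.945 by limma, and no gene in the table passed 0.05.

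The OT uteruses fell into a higher and a lower pair for the chains and Cd74. H2-Aa measured 161, 169.6 and 166 FPKM in the OC uteruses and 254, 336, 136 and 131 in OT1 to OT4, so that 2 OT libraries lay above the OC range and 2 below it. Cd74 showed the same split for 3 of these, with 206, 227 and 224 FPKM in OC and 317, 414, 209 and 189 in OT, where OT3 fell inside the OC range. The 3 OC uteruses were close to each other, with an SD of 4.37 FPKM for H2-Aa. The log2 differences were 0.26 for H2-Aa (SE 0.33), 0.23 for H2-Ab1 (SE 0.29), 0.22 for H2-Eb1 (SE 0.26) and 0.29 for Cd74 (SE 0.27). Without OT2 they were 0.00 for H2-Aa, 0.03 for H2-Ab1, 0.00 for H2-Eb1 and 0.09 for Cd74.

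H2-DMa was the only member whose 4 OT uteruses all lay above the OC uteruses, which held for 6.46% of the genes tested. It measured 11.3, 13.5 and 14.5 FPKM in OC and 16.0, 28.6, 15.5 and 15.2 in OT, with a log2 difference of 0.47 (SE 0.24, adjusted p = 0.621 by limma). H2-DMb1 differed by 0.42 (SE 0.28) and H2-DMb2 by 0.56 (SE 0.56), the latter from 1.38, 1.97 and 1.49 FPKM in OC and 2.62, 6.92, 1.58 and 1.11 in OT. Without OT2 these differences were 0.25 for H2-DMa, 0.18 for H2-DMb1 and 0.06 for H2-DMb2. H2-Ob (0.18, SE 0.39) and H2-Oa (0.06, SE 0.30) both changed sign without OT2, to −0.14 and −0.12. Ciita was the only member with a negative difference, −0.13 (SE 0.28): OC measured 5.74, 5.65 and 5.89 FPKM, and of the OT uteruses OT2 was above that range at 8.86 and the other 3 below it at 4.10, 5.05 and 4.09, a difference of −0.38 without OT2.

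Quantile normalization of the FPKM brought the uterine median of the members to 0.03, and leaving out OT2 brought it to 0.02, with 7 of 10 members above 0. In the ovary the median was 0.40 after quantile normalization and 0.25 without OT2, with 9 of 10 members above 0 in both. The difference of the 2 responses (uterus minus ovary) ran from −0.44 for Ciita to 0.19 for H2-Oa, and none of the 10 members was called, against 2.04% of 14557 genes. Their adjusted p-values for this difference were 0.805 to 0.994 by limma.

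**Figure D2:**
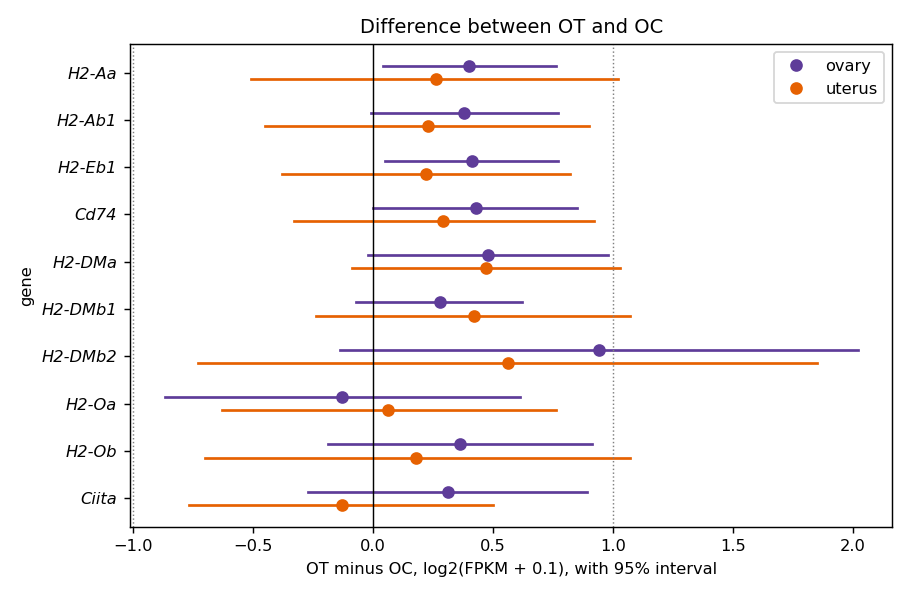
Difference between OT and OC for each gene in log2(FPKM + 0.1), with its 95% interval, in the ovary (4 OT and 3 OC mice) and the uterus of the same mice; dotted lines mark −1 and 1. In the ovary 9 of 10 points lie above 0, from 0.28 to 0.94, and in the uterus the intervals of all 10 genes include 0.

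H2-DMa was set against H2-Oa within each library, since H2-O binds and restrains H2-DM. The log2 ratio was 2.93, 2.60 and 2.86 in the OC ovaries and 3.06, 3.52, 3.54 and 3.52 in the OT ovaries. In the uterus it was 2.55, 2.69 and 2.52 in OC and 2.74, 3.10, 3.35 and 2.78 in OT. The groups did not overlap in either organ, with a mean difference of 0.61 between the ovaries and 0.41 between the uteruses. The two-sided exact permutation p was 0.0571 in each, which is the smallest that 3 against 4 mice can give, so the threshold of 0.05 could not be reached. The differences stayed positive without each mouse in turn, at 0.51 to 0.73 (ovary) and 0.29 to 0.49 (uterus), and both organs come from the same 7 mice. This held for the alpha chain of H2-O: the log2 ratio of H2-DMa to the beta chain, H2-Ob, computed after these values were seen and not tested, overlapped in both organs, at 1.49 to 1.94 in the OC ovaries and 1.64 to 1.95 in OT, and at 2.58 to 2.86 and 2.67 to 3.38 in the uteruses. H2-Oa lay between 0.547 and 3.24 FPKM, and the fragments behind that level are not known. For Cd74 against the chain genes in the uterus, the mean log2 ratio was 0.90 ± 0.03 (SD, n = 3) in OC and 0.96 ± 0.06 (n = 4) in OT, with a two-sided exact permutation p of 0.229, and over the 4 permutation tests of ratios the Benjamini-Hochberg adjusted p was 0.114 for each H2-DM test and 0.305 and 0.514 for Cd74 in the uterus and the ovary.

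**Figure D3:**
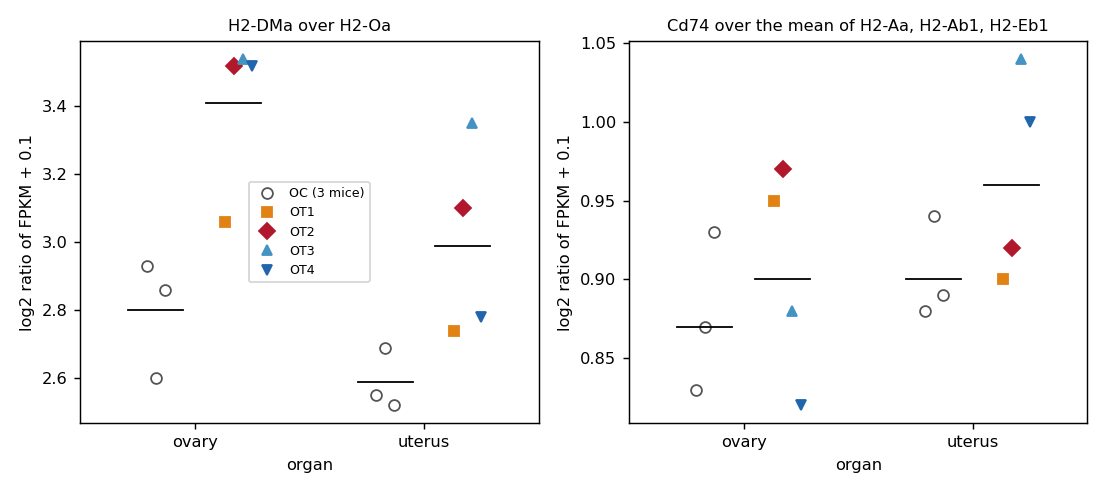
Log2 ratio, within a library, of H2-DMa to H2-Oa (left) and of Cd74 to the mean of H2-Aa, H2-Ab1 and H2-Eb1 (right), by organ, with 1 point per mouse and lines for the means of OC (open circles) and OT (filled). For H2-DMa to H2-Oa every OT point lies above the OC points of its organ, while for Cd74 the whole vertical axis spans 0.82 to 1.04.

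Mouse by mouse, 1 treated mouse led in both organs. In some other OT libraries the members lay on both sides of the OC mean, from −0.48 to 0.68 in the OT1 uterus and −0.76 to 0.23 in the OT3 ovary. OT2 was the highest of the 7 libraries for all 10 members in the ovary and for all 10 in the uterus. Of all genes tested, 16.0% were highest in OT2 in the ovary, 12.7% in the uterus and 3.38% in both. The median distance of the members from the OC mean was 0.89 in the OT2 ovary and 0.97 in the OT2 uterus, on the log2 scale. For OT1 it was 0.39 and 0.44. The OT3 and OT4 mice differed between organs, with 0.16 and 0.17 in their ovaries and −0.15 and −0.19 in their uteruses.

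The summed B cell, plasma cell, macrophage and pan-leukocyte markers were highest in OT2 in both organs. Sdc1 alone gave 112 to 273 FPKM of the plasma cell sums in the ovaries, and it was lower in the uterus by a log2 difference of −2.35. By single genes, OT2 was highest for 6 of the 8 plasma cell markers in the ovary and 5 of 8 in the uterus. The pan-leukocyte sum was 150.3 FPKM in the OT2 ovary and 60.8 to 120.3 in the other ovaries. In the uterus it was 293 in OT2 and 120.2 to 197 in the others. The summed T cell markers were highest in OC2 among the ovaries (31.9 FPKM) and in OC3 among the uteruses (63.1). The 12 B cell markers summed to 3.87 to 5.56 FPKM in the OC ovaries and to 7.59, 31.3, 5.56 and 7.88 in the OT1 to OT4 ovaries, and to 3.66 to 5.39 in the OC uteruses and 8.60, 38.7, 8.53 and 6.38 in the OT uteruses. OT2 held the highest value of 12 of the 12 in the ovary and 10 of 12 in the uterus. Of the defining B cell markers, Ms4a1, Pax5, Cr2 and Fcer2a were among those listed at 0 in at least 1 library, but none in OT2. Between OT and OC, 1 of 8 B cell markers tested was called in the ovary, Cd22 (1.12), against 0.451% of all genes. In the uterus 3 of 9 were called, Ms4a1 (2.82), Cd79a (1.64) and Cd79b (1.62), against 2.9%, as log2 differences. Of 8 plasma cell markers tested in the uterus, Pou2af1 (2.94), Jchain (1.94) and Irf4 (1.55) were called and Prdm1 was below 0 (−1.07). Pou2af1 was at 12.5 FPKM in the OT2 uterus and 0.549 to 1.38 in the other OT uteruses. In the ovary 0 of 7 plasma cell markers were called, with 4 above 0 and 3 below. None of the genes called passed 0.05 after adjustment.

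The 13 macrophage markers summed to 333 to 443 FPKM in the OC ovaries and to 482, 625, 431 and 612 in the OT ovaries. In the uterus the sums were 411 to 494 in OC and 875, 1461, 505 and 478 in OT, with OT1 and OT2 above the rest. In the uterus 1 of the 13 was called, Cd163 (1.39), against 2.9% of all genes tested, and in the ovary 0 of 13 were called, against 0.451%. None of the 13 was at 0 in any library. The OT4 ovary, at 612, had a median distance of the members of 0.17. Of the 12 dendritic cell markers, 4 were highest in OT2 among the ovaries and 5 among the uteruses. They summed to 30.6 to 33.9 FPKM in the OC ovaries and 32.5 to 40.4 in OT, where OT1 was the highest and OT2 was at 39.4. Zbtb46 alone gave 14.3 to 19.0 FPKM of the ovary sums, and it was lower in the uterus by a log2 difference of −1.4. In the uteruses the sums were 34.2 to 44.1 in OC and 34.9 to 65.8 in OT, where OT2 was the highest. Ccr7, Ccl17 and Ccl22 were listed at 0 in at least 1 library. Of the dendritic cell markers tested, 1 of 9 was called in the ovary, Batf3 (1.14), against 0.451% of all genes. In the uterus 0 of 10 were called, against 2.9%. In bulk tissue, more cells of a type and more RNA per cell cannot be told apart, and the part of these cell types in the class II values was not tested.

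**Figure D4:**
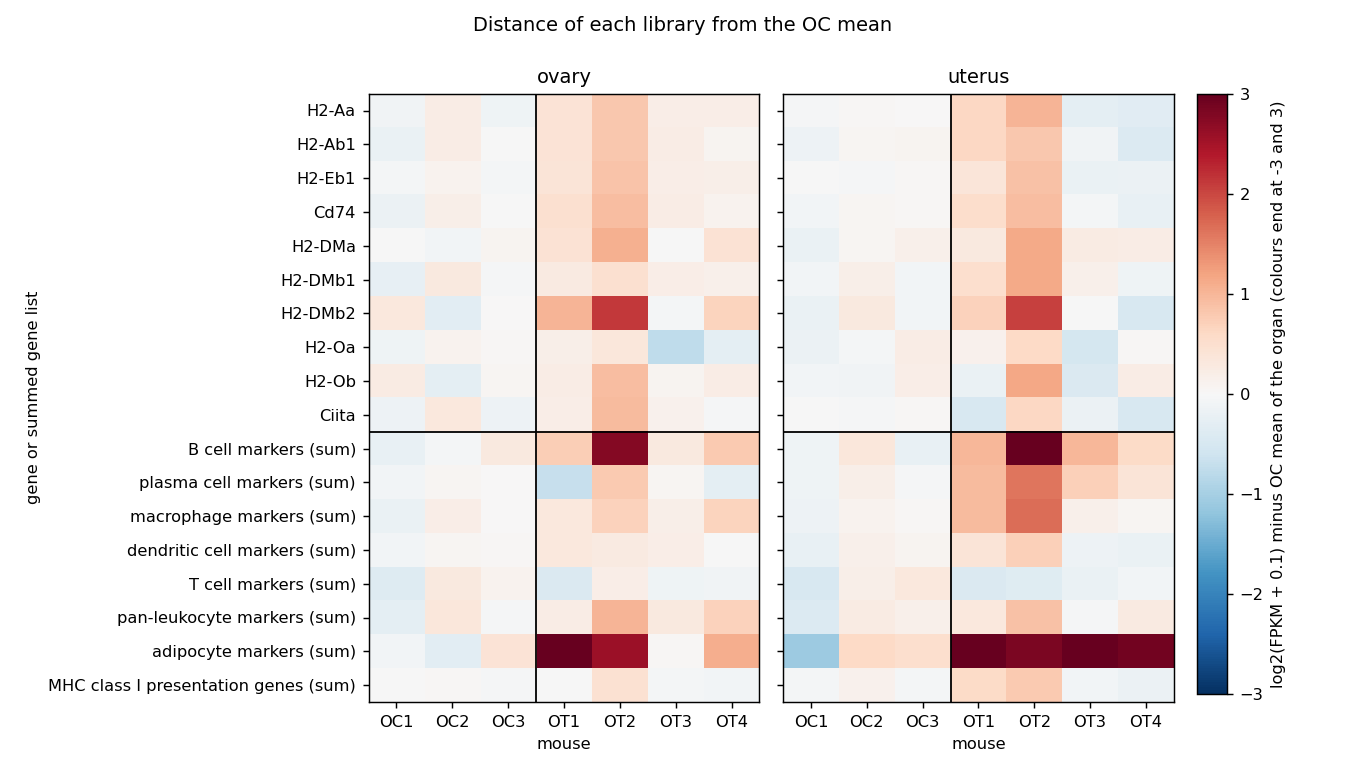
Distance of each library from the OC mean of its organ on the log2(FPKM + 0.1) scale (colours end at −3 and 3) for the 10 genes (top) and for the summed FPKM of 8 gene lists (bottom), with mice in columns. The OT2 column is red for all 10 genes in both organs, as are its B cell (31.3 and 38.7 FPKM) and macrophage (625 and 1461 FPKM) sums, whereas the adipocyte sum is high in all 4 OT uteruses.

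Between members, the Pearson r of the values centred within each organ ran from 0.50 to 0.98 over the 14 libraries, with a median of 0.77 over 45 pairs. The points share mice and libraries, so these are descriptions. OT2, the highest for all 10 members in both organs, weighs on every r given here, and no r was computed without it. H2-Eb1 followed the mean of the other members most closely (r = 0.98) and H2-Oa least (r = 0.65), with Ciita at 0.75. Among 13614 other genes tested in both organs, the 10 whose profile was most like the mean of the members were Itga4 (r = 0.947), C3 (0.937), H2-D1 (0.937), Ms4a6b (0.934), Csf1r (0.933), Spib (0.923), Lvrn (0.914), Cd48 (0.903), H2-K1 (0.903) and Pld4 (0.900). H2-D1 and H2-K1 encode the class I heavy chains of this strain, Csf1r is the receptor that macrophages depend on, and Spib is a transcription factor of B cells and plasmacytoid dendritic cells.

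More members passed a test between the organs than between the groups. With each mouse as a block, 9 of the 10 members were higher in the uterus than in the ovary at an adjusted p under 0.05 by limma, against 26.1% of all 14557 genes tested. Their log2 differences ran from 0.67 to 1.11, and 8 of the 9 were higher in the uterus in 7 of 7 mice, which held for 20.2% of genes. H2-DMb2 was higher in 6 of 7 and lower in OT4. Its difference of 0.67 (adjusted p = 0.021 by limma) missed the threshold without OC2 (adjusted p = 0.055), OT2 (0.057) or OT3 (0.051), and the other 8 passed it without each mouse in turn. Only H2-Oa passed the cutoff of a 2-fold difference, against 10.2% of genes called higher in the uterus.

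H2-Oa measured 0.547 to 1.29 FPKM in the ovaries (median 1.02) and 1.42 to 3.24 in the uteruses (median 2.13), without overlap between organs. The difference was 1.11 (SE 0.14, adjusted p = 0.000163 by limma), or 2.16-fold, and with a pseudocount of 1 it was 0.69, under the 2-fold cutoff. H2-Ob, which pairs with it, had 1.77 to 4.24 FPKM in the ovaries and 1.40 to 4.41 in the uteruses, a difference of −0.28 (SE 0.15, adjusted p = 0.132 by limma) that did not pass the test. Per length, H2-Oa was 0.236 to 0.61 times H2-Ob in the ovaries and 0.735 to 1.39 times in the uteruses.

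For the chains, the difference between uterus and ovary was 0.67 for H2-Aa (SE 0.11, adjusted p = 0.000763), 0.84 for H2-Ab1 (SE 0.09, adjusted p = 6.13e-05) and 0.75 for H2-Eb1 (SE 0.08, adjusted p = 5.54e-05), all by limma. Cd74 was 0.80 higher (SE 0.08, adjusted p = 2.74e-05 by limma), a 1.74-fold ratio. H2-DMa was 0.78 higher, H2-DMb1 0.72, H2-DMb2 0.67 and Ciita 0.71. The OT3 and OT4 mice had the smallest differences for the chains and Cd74, down to 0.23 for H2-Aa in OT4. In the 3 OC mice alone the median of the members was 0.86.

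**Figure D5:**
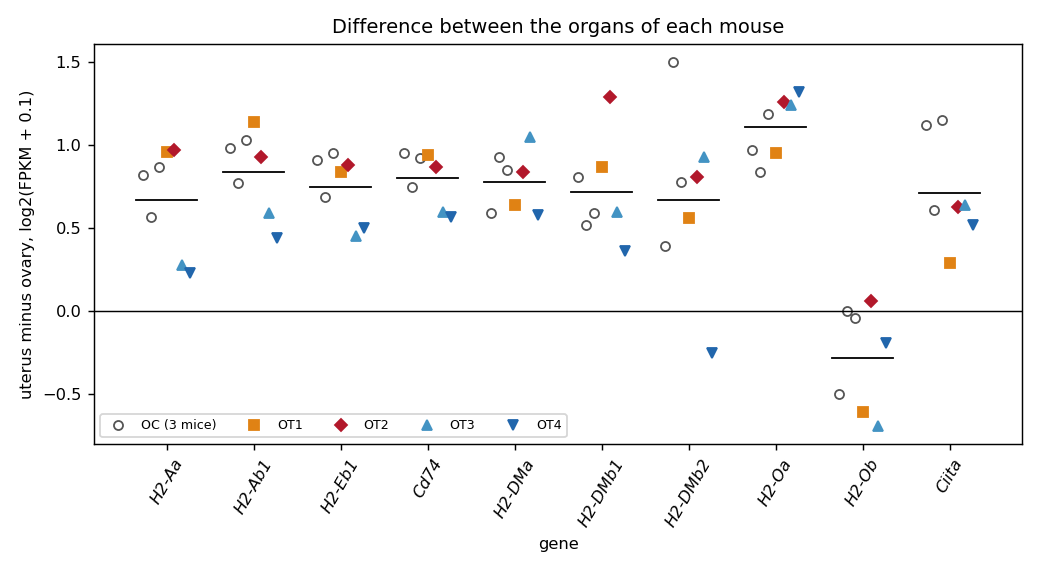
Uterus minus ovary within each mouse on the log2(FPKM + 0.1) scale for the 10 genes, with 1 point per mouse (open circles OC, filled symbols OT) and lines for the fitted difference. Points lie above 0 for 8 genes in all 7 mice, H2-DMb2 is below 0 in OT4 at −0.25, and H2-Ob lies near or below 0.

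Pan-leukocyte markers were also higher in the uterus, 6 of 6 at an adjusted p under 0.05 by limma, where 26.1% of all genes tested were higher and 26.1% lower, with a median difference of 1.11, and their sum was 60.8 to 150.3 FPKM in the ovaries and 120.2 to 293 in the uteruses. Of the dendritic cell markers tested, 5 of 10 were higher and 2 lower, and of the macrophage markers 4 of 13 were higher, a share near that of all genes, and none lower. Of the B cell markers, none of 8 was higher and 1 was lower. The part of these cells in the organ difference was not tested.

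Of the 12 accessory genes tested, which include the endosomal proteases that cut antigen and invariant chain, 3 were higher and 3 lower in the uterus at an adjusted p under 0.05 by limma, with a median difference of 0.04. These counts are close to the share of all genes in each direction (26.1%). Ctsl, a cathepsin, and Lgmn, an asparaginyl endopeptidase, were lower in the uterus by a difference of −1.89 and −1.69. Between OT and OC, 0 of the 12 were called in either organ, and the medians were 0.08 (ovary) and 0.29 (uterus). Ifi30 was not analysed here, and H2-Eb2 fell under the filter on low values, with 0.719 FPKM or less in every library.

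Of the factors that act on class II promoters, Rfx5, a DNA-binding subunit of RFX, had 11.7 ± 0.74 FPKM (SD, n = 3) in the OC ovaries and 11.9 ± 0.275 (n = 4) in the OT ovaries, a log2 difference of 0.02, and −0.17 in the uterus. Rfxank differed by 0.13 and −0.09, and Rfxap by −0.14 and −0.23, in the ovary and the uterus, and Irf1 by 0.13 and 0.15. Of the factors that join RFX at these promoters, Creb1 differed by −0.13 and −0.28, Nfya by −0.04 and −0.25, Nfyb by 0.02 and −0.05 and Nfyc by −0.08 and −0.41, with adjusted p-values by limma of 0.572 or more. Ifng itself was at 0 to 0.654 FPKM, under the filter and so not tested, and was listed at 0 in libraries of all 4 groups. Its mean was 0.133 FPKM in the OC ovaries and 0 in the OT ovaries, and 0.304 and 0.0367 in the uteruses. Of the 18 genes of this list tested, 0 were called in the ovary, where the median was −0.01, and 1 in the uterus, where the median was −0.07. That gene was Irf4, a factor of B cells, plasma cells and some dendritic cells, with a difference of 1.55 (SE 0.60) from 1.13 to 1.22 FPKM in OC and 9.28, 6.12, 2.06 and 1.45 in OT1 to OT4. Between the organs, Jak2, a kinase of interferon receptors (1.42), and Irf4 (1.06) were called higher in the uterus. That is 2 of the 18, against 10.2% of all genes tested.

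Class I presentation genes, which serve peptides from inside the cell, had medians between OT and OC of 0.10 (ovary) and 0.09 (uterus), with 0 of 16 called in either. In the uterus 8 of 16 were higher than in the ovary and 2 lower at an adjusted p under 0.05 by limma, with H2-D1 past 2-fold at a log2 difference of 1.05. Of all genes tested, 26.1% were higher and 26.1% lower. Their sum was 2079 FPKM in the OT2 ovary against 1426 to 1556 in the other ovaries. Of the 6 costimulatory genes tested, 0 were called between OT and OC, with medians of 0.21 and 0.40. Cd80 (1.54) and Tnfsf9 (1.33), 2 of the 6, were called higher in the uterus than in the ovary, against 10.2% of all genes tested. At an adjusted p under 0.05 by limma, 4 of the 6 were higher in the uterus and 1, Icosl (−0.89), was lower.

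Within the chromosome 17 interval, 5 genes of the table are not members: Brd2, Psmb9, Tap1, Psmb8 and Tap2, the last 4 of which serve class I peptide supply. Between OT and OC their median difference was 0.09 in each organ. In the uterus 3 of the 5, Psmb9 (0.89), Tap1 (0.48) and Psmb8 (0.42), were higher than in the ovary at an adjusted p under 0.05 by limma, and Tap2 (0.06) and Brd2 (−0.17) were not. Of all 14557 genes tested, 26.1% were higher in the uterus at that threshold, and 5 genes are few to set against this share.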

How the data were processed

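RNA-seq was measured in the ovary and uterus of 3 OC and 4 OT mice. The values are FPKM, which the authors made from libraries of rRNA-depleted total RNA by mapping reads to mm10 with STAR 2.5 and quantifying genes with Cufflinks 2.2.1. The deposited FPKM were used as they are. Reads were not used here, so depth is unknown, no counting interval is given, and Cuffdiff, the test named for the study, was replaced by limma. All 21853 identifiers matched GENCODE M21, and 24 rows shared a symbol with another gene, none of them a member. FPKM is relative to all fragments of a library, so a few very abundant genes can lower the others.

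Groups, mice and organs were taken from the sample titles. Genes averaging 0.5 FPKM or more over the libraries fitted were tested with limma 3.58.1 (R 4.3.3; lmFit and eBayes with trend) on log2(FPKM + 0.1), which understates changes of low genes. P-values were adjusted by Benjamini-Hochberg over all genes tested. OC and OT were compared within each organ without a block. The organs were compared with the mouse as a fixed block, and the difference of responses with the mouse as a random block, since the titles pair the 2 organs of a mouse (correlation of same-mouse deviations 0.09 to 0.265, median 0.153, against a median of −0.088 for different mice). Ratios were tested by exact two-sided permutation over the 35 assignments (2 times the smaller tail). Python 3.11.15, numpy 2.4.6, pandas 2.3.3, scipy 1.17.1 and matplotlib 3.10.9 were used for the rest. The fits were first tested on simulated data. All 10 members are named, of the pathway lists and, between OT and OC, the immune cell lists the genes called, the factors Rfx5, Rfxap, Rfxank, Irf1 and Ifng, and the 10 genes most like the members. Called genes of the other lists are given as counts, and some list genes are not reported here by name. Other genes named as values were chosen after values were seen. They include Hoxa10, H2-Eb2, Icosl, Sdc1, the CREB and NF-Y genes, markers listed at 0 and the chromosome 17 neighbours. The members and lists were chosen with earlier results of these data known. Alternatives were other pseudocounts, filters, scalings, robust eBayes, blocks, and leaving out each mouse.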

Additional observations from a re-analysis of the deposited data

Results flagged for a closer look

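Each member and both ratios were examined for an OT library far from the other 3 in each organ, 24 groups of 4 in all, of which chance alone flags about 1 in 20. In 3 groups the gap to the nearest library, as a share of the range, exceeded the critical value of Dixon's test. H2-Ob was at 4.24 FPKM in the OT2 ovary, above 2.32 to 2.59 in the other OT ovaries. H2-DMa was at 28.6 FPKM in the OT2 uterus, above 15.2 to 16.0 in the others. The log2 ratio of H2-DMa to H2-Oa was 3.06 in the OT1 ovary, below 3.52 to 3.54 in the others. Groups of 3 were not examined.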

How the results depend on the processing

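The limits are 3 OC and 4 OT mice, unknown depth, low levels of H2-Oa, H2-Ob and H2-DMb2, and near-identical H2-DMb genes. The count of members called between OT and OC was 0 in both organs under every alternative run, except for 1 in the ovary (range 0 to 1 when each mouse was left out in turn; 1, H2-DMb2, without OT3), and 0 for the difference of responses. Between organs it was 1, but 0 with a pseudocount of 1, where H2-Oa was at 0.69, and the count at an adjusted p under 0.05 was 8 to 9 without each mouse and 8 without a block or in the OC mice alone, H2-DMb2 being the gene lost. All genes called between OT and OC in the ovary numbered 65, but 18 with a pseudocount of 1, 159 without a filter on low values, and 51 to 137 without each mouse (137 without OT3). In the uterus they numbered 410, but 259 with a pseudocount of 1. For the difference of responses they numbered 297, but 153 with a pseudocount of 1 and 474 without a filter, and 236 to 423 without each mouse. Same-numbered OC and OT mice are different animals that share only a number (correlation of their deviations 0.045 to 0.331 in the ovary and −0.027 to 0.08 in the uterus). A replicate block with OT4 left out gave 103 genes called in the ovary and 666 in the uterus, with 0 members called in each, and changed no call of a member. Without each mouse in turn, H2-Oa ran from −0.29 to 0.08 in the ovary (above 0 without OT3) and from −0.12 to 0.26 in the uterus (below 0 without OC1, −0.02, and without OT2), and H2-Ob from −0.14 to 0.39 in the uterus (below 0 without OT2). In the difference of responses H2-DMa, at −0.01, ran from −0.11 to 0.06 (above 0 without OC2, OC3, OT1 and OT4), was at 0.05 with the replicate block and just above 0 (0.00) with a pseudocount of 1, and H2-DMb1 ran from −0.03 (without OT2) to 0.28. The causes were not tested. Scaling to the 75th percentile and quantile normalization changed no sign between OT and OC.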
